A study of Homo sapiens with 12 samples.

Results

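The genes described here are the WNT ligands, their frizzled and LRP receptors, the secreted SFRP and DKK antagonists and the AXIN scaffolds, 42 genes chosen by symbol from the 55737 gene rows of the deposited tables. All 42 were found in each of the 4 tables: 19 WNT genes, 10 FZD genes, LRP5 and LRP6, SFRP1, SFRP2, SFRP4, SFRP5 and FRZB, DKK1 to DKK4, and AXIN1 and AXIN2. Transcripts had been measured by RNA sequencing in HCA2 (MJ90), an established line of human skin fibroblasts, in 4 groups of 3 libraries. The groups were irradiated senescent and low-passage young cells with a doxycycline-inducible short hairpin against FBXO22 (shFbxo22), and irradiated senescent and low-passage young cells with a doxycycline-inducible hairpin against luciferase (shLuc). Senescence had been induced with 10 Gy of ionizing radiation, and when doxycycline was given is not stated in the sources used here. All groups come from 1 cell line, and separate cultures are not named for the 3 libraries of a group, so the p-values measure a spread between libraries that may be technical.

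The deposited tables compare 2 groups each and hold no values per library. They give a base mean (the mean normalized count of 6 libraries), a log2 fold change with its standard error, and a Wald test with an adjusted p, called here at 0.05. Group means below were worked out from base means and fold changes, each group in 2 tables, and have no error of their own. The hairpin's target went against its label in senescent cells. FBXO22 stood at 746 normalized counts in the libraries labelled shFbxo22 senescent and 254 in shFbxo22 young libraries, with 371 in shLuc senescent and 438 in shLuc young libraries, from the authors' deposited tables. Its log2 fold change for the hairpins was 1.01 ± 0.12 in senescent and -0.81 ± 0.15 in young cells (Wald test, adjusted p = 7.91e-15 and 1.07e-06), per the authors' deposited tables. Directions for the libraries labelled shFbxo22 senescent are therefore those of the label, not of a lower FBXO22 transcript level. An exchange of libraries, labels or tables and a hairpin that did not lower its target in these libraries cannot be told apart here, and an exchange would change what every value with this group means. The fibroblast label fitted its markers, since all 12 fibroblast markers had base means of at least 1456 in every table. Of 6 keratinocyte markers, KRT5, KRT14, KRT1 and TP63 had base means of at most 1.16, while KRT10 had 39.1 to 45.9 and CDH1 27.5 to 149. Of 5 melanocyte markers, MLANA, TYR and DCT had at most 1.5, while PMEL had 28.8 to 32.3 and MITF, which is not particular to melanocytes, 952 to 1565. Of the endothelial markers in the tables, CDH5 had at most 0.166, VWF 46.9 to 49.8 and KDR 3.63 to 374. Of 4 leukocyte markers, CD3E was at 0, CD14 had 21.1 to 34.3, CD68 13.6 to 26.9 and PTPRC 2.82 to 13.4. Summed base means ranged over the tables from 73.5 to 192 for keratinocyte, 984 to 1597 for melanocyte, 52.7 to 422 for endothelial and 48.2 to 63.8 for leukocyte markers, against 595659 to 658640 for fibroblast markers. CDH1 and KDR had their highest base means over senescent and young shLuc libraries together, and both were lower in the senescent ones (log2 fold changes -1.15 and -1.37). For the hairpins the authors' fold changes, moderated towards 0, were all lower with shFbxo22. KDR was at -4.65 in senescent and -1.41 in young cells, and CDH1 at -1.09 and -2.19. The base mean of KDR was 3.63 over both shFbxo22 groups and 299 over both young groups. The value of -1.41 therefore understates the difference of KDR in young cells. The part of these markers in the results was not tested. In bulk RNA, fewer cells expressing a gene and less RNA per cell cannot be told apart.

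WNT proteins are secreted lipid-modified ligands that bind frizzled receptors. With the co-receptors LRP5 or LRP6, frizzled receptors stop a destruction complex built on AXIN from degrading beta-catenin, which then activates target genes with TCF and LEF factors. With other partners they act on cell polarity and calcium without beta-catenin. SFRP proteins bind WNT ligands outside the cell, DKK1 binds LRP5 and LRP6, and AXIN2 is a scaffold that is itself a widely used target gene of beta-catenin. In skin, fibroblast WNT ligands and antagonists take part in dermal patterning and hair follicle signalling.

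Of the 42 members, 21 reached a base mean of 20 in each table, and 3 (DKK4, SFRP5 and WNT8A) were at 0 throughout. In all, 14 members had no adjusted p anywhere: those 3 together with DKK2, FZD10, WNT1, WNT3A, WNT4, WNT6, WNT7A, WNT7B, WNT8B, WNT9B and WNT10A, whose base means were at most 3.15. That left 28 members with an adjusted p in at least 1 table, 26 of them in all 4. In senescent against young shFbxo22 cells, 6 of 27 tested members were called (17.7% of all tested genes), 2 higher (8.16% of all) and 4 lower (9.57%). In senescent against young shLuc cells it was 15 of 27 (42.6% of all genes), 6 higher (21.2%) and 9 lower (21.3%). With shFbxo22 against shLuc in senescent cells it was 19 of 28 (40.1% of all genes), 11 higher (20.2%) and 8 lower (19.9%). In young cells it was 16 of 28 (35.9% of all genes), 11 higher (18.7%) and 5 lower (17.3%). Members with more reads are called more easily. Among genes that reached a base mean of 20, in the order just given, 26.1% of members against 20.7% of all genes, 60.9% against 55.6%, 72% against 53.2%, and 63.6% against 43.5% were called. The members' median log2 fold changes were -0.13 and -0.06 for senescence with shFbxo22 and shLuc, and 0.35 and 0.28 for the hairpins in senescent and young cells. The median over all tested genes lay between -0.01 and 0.00 in the 4 tables. These counts cover only members that passed the authors' filter on low values, and a low gene can pass it through the group where it is high.

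**Figure D1:**
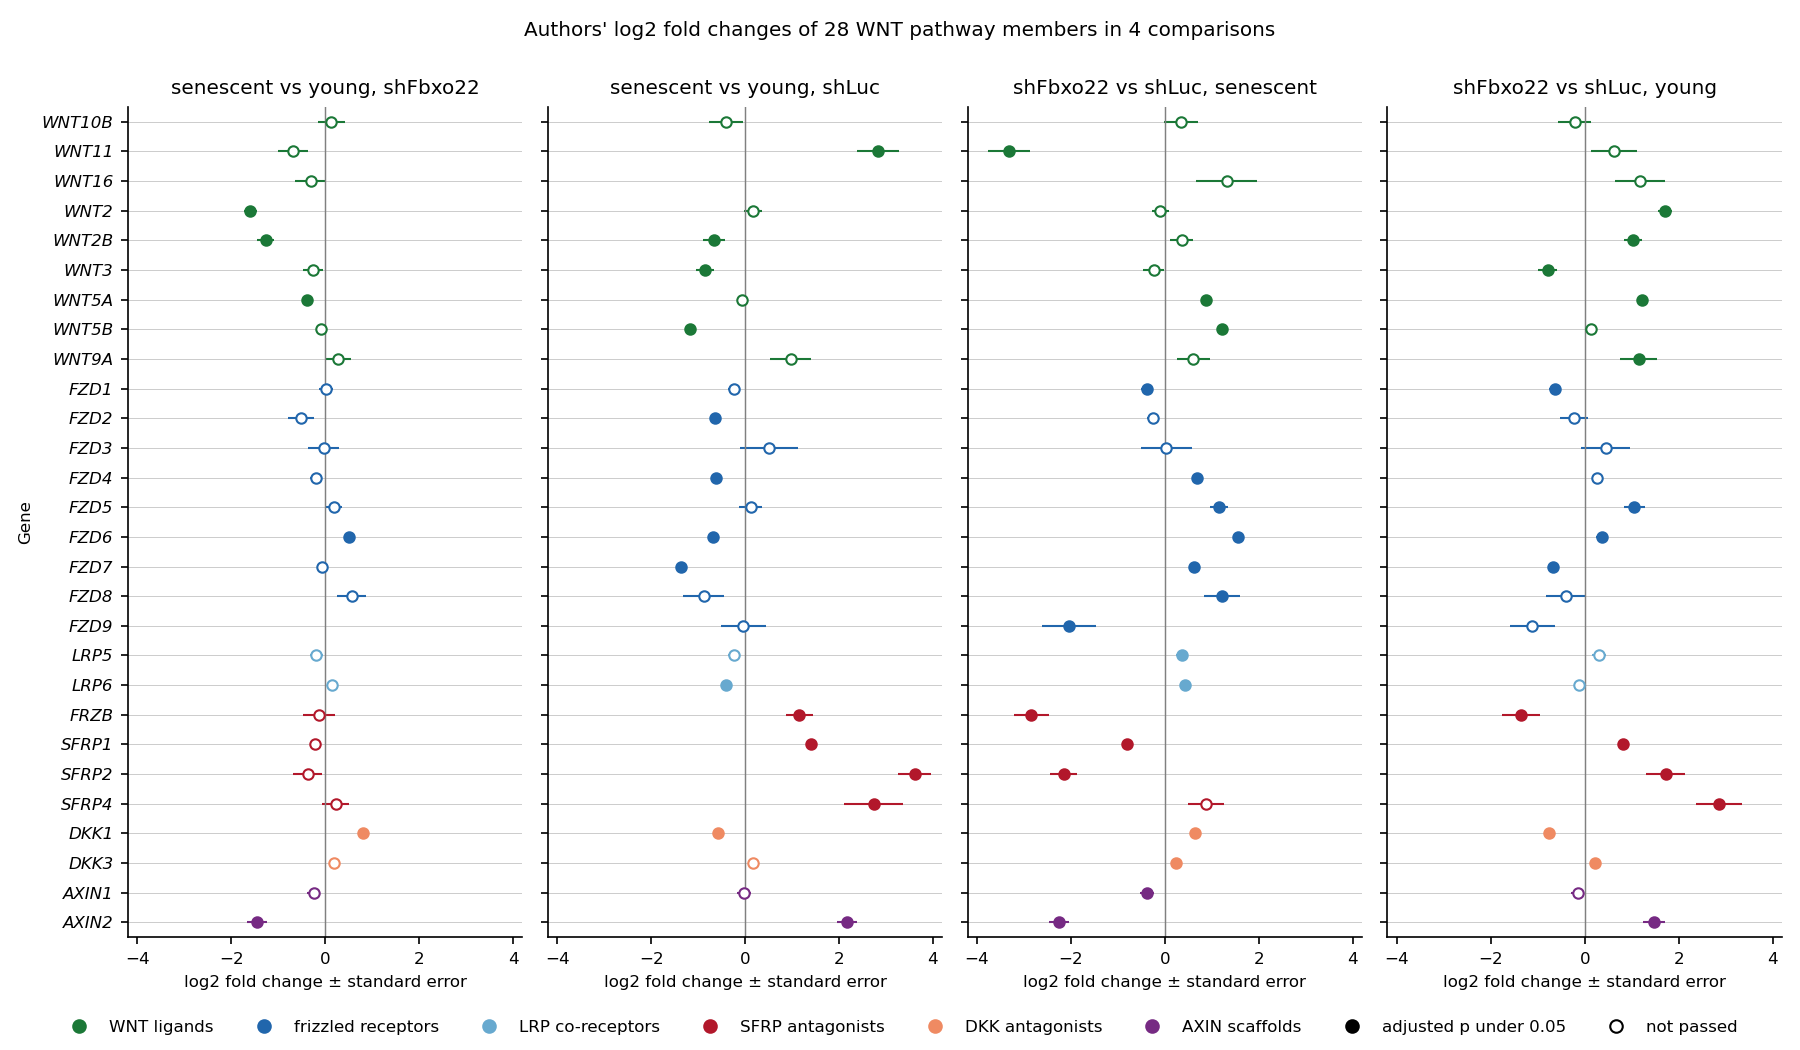
Authors' log2 fold changes (x axis, log2 units, bars are the authors' standard errors) of the 28 WNT pathway members with an adjusted p (y axis) in 4 comparisons; positive values are higher in senescent cells or with shFbxo22, filled points have an adjusted p under 0.05, and a missing point has no adjusted p. The members furthest from 0 are WNT2 at -1.59 for senescence with shFbxo22, SFRP2 at 3.61 for senescence with shLuc, WNT11 at -3.32 for the hairpins in senescent cells and SFRP4 at 2.85 for the hairpins in young cells; AXIN2 is on opposite sides for senescence under the hairpins.

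Among the ligands, WNT5A and WNT2 were higher with shFbxo22 in young cells, WNT5B was lower in senescent than in young shLuc cells, and WNT11 was high in senescent shLuc cells. WNT5A is best known for signalling without beta-catenin. In group means worked out from the authors' deposited tables it had 7266 normalized counts in the libraries labelled shFbxo22 senescent, 9488 in shFbxo22 young, 3903 in shLuc senescent and 4066 in shLuc young libraries. Both shFbxo22 groups thus lay above both shLuc groups. The log2 fold changes for the hairpins were 0.89 ± 0.09 in senescent cells (Wald test, adjusted p = 1.57e-19) and 1.21 ± 0.09 in young cells (adjusted p = 5.77e-41), per the authors' deposited tables. For senescence they were -0.39 ± 0.09 with shFbxo22 (adjusted p = 0.000534) and -0.06 ± 0.09 with shLuc, which did not pass (adjusted p = 0.646), per the authors' deposited tables.

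WNT5B, a close relative of WNT5A, had group means of 2810 normalized counts in the libraries labelled shFbxo22 senescent, 2981 in shFbxo22 young, 1201 in shLuc senescent and 2715 in shLuc young libraries, from the authors' deposited tables. The shLuc senescent group was the low one. Its log2 fold change was -1.18 ± 0.09 for senescence with shLuc (Wald test, adjusted p = 3.86e-37) and -0.09 ± 0.10 with shFbxo22 (adjusted p = 0.682, not passed), per the authors' deposited tables. Set against shLuc, the level was higher by 1.22 ± 0.09 on the log2 scale in the libraries labelled shFbxo22 senescent, while the difference in young cells, 0.13 ± 0.10, did not pass in the authors' deposited tables.

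WNT2 and WNT2B are paralogous ligands that signal through beta-catenin in lung development. WNT2 stood at 160 normalized counts in the libraries labelled shFbxo22 senescent, 492 in shFbxo22 young, 167 in shLuc senescent and 149 in shLuc young libraries, worked out from the authors' deposited tables. The shFbxo22 young group was the high one, and the other 3 lay close together. The authors' deposited tables gave log2 fold changes of 1.71 ± 0.15 for the hairpins in young cells (Wald test, adjusted p = 1.24e-28) and -1.59 ± 0.14 for senescence with shFbxo22 (adjusted p = 1.19e-26). Neither senescence with shLuc, at 0.18 ± 0.19, nor the hairpins in senescent cells, at -0.10 ± 0.19, passed in the authors' deposited tables. WNT2B was at 89.05 and 221 normalized counts in senescent and young shFbxo22 libraries and at 67.4 and 108 in senescent and young shLuc libraries, from the authors' deposited tables. It fell in senescence with both hairpins, with log2 fold changes of -1.27 ± 0.18 for shFbxo22 and -0.66 ± 0.24 for shLuc (Wald test, adjusted p = 6.82e-11 and 0.0152), per the authors' deposited tables. The annotation places an exon of ST7L on the other strand over WNT2B, and whether the authors counted by strand is not stated in the sources used here. ST7L itself passed in none of the 4 tables (adjusted p from 0.163 to 0.912 in the authors' deposited tables).

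WNT11, a ligand of cell movement in gastrulation, had too few reads for a group mean. The base means of the authors' deposited tables alone put it between 43.9 and 59.1 normalized counts in shLuc senescent libraries. The same base means put it at no more than 15.3 in either shFbxo22 group and 17.3 in shLuc young libraries. Its level was thus high only in shLuc senescent libraries among the 4 groups. The moderated log2 fold changes were 2.83 ± 0.44 for senescence with shLuc (Wald test, adjusted p = 9.46e-10) and -3.32 ± 0.45 for the hairpins in senescent cells (adjusted p = 1.94e-12), per the authors' deposited tables. With shFbxo22 the senescence value of -0.69 ± 0.33 did not pass, nor did the hairpin value in young cells of 0.63 ± 0.50, in the authors' deposited tables. An exon of AP000785.1 lies over WNT11 on the other strand. No values were found for AP000785.1, so its part in the WNT11 count is unknown if strand was not used.

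WNT3, a ligand of beta-catenin signalling, was highest in shLuc young libraries, with 78.5 normalized counts in the libraries labelled shFbxo22 senescent, 95.4 in shFbxo22 young, 92 in shLuc senescent and 166 in shLuc young libraries from the authors' deposited tables. It fell with senescence in shLuc cells, -0.85 ± 0.20, and with shFbxo22 in young cells, -0.79 ± 0.19 (Wald test, adjusted p = 6.62e-05 and 0.000275), per the authors' deposited tables. WNT9A passed only for the hairpins in young cells, where the authors' deposited table gave 1.15 ± 0.40 on the log2 scale (adjusted p = 0.0126) and the higher level with shFbxo22. WNT10B, at 25.2 to 33.3 normalized counts across the groups, passed in none of the authors' 4 deposited tables, and neither did WNT16, which had an adjusted p in 3 of them. The other 10 ligands had no adjusted p in any table.

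**Figure D2:**
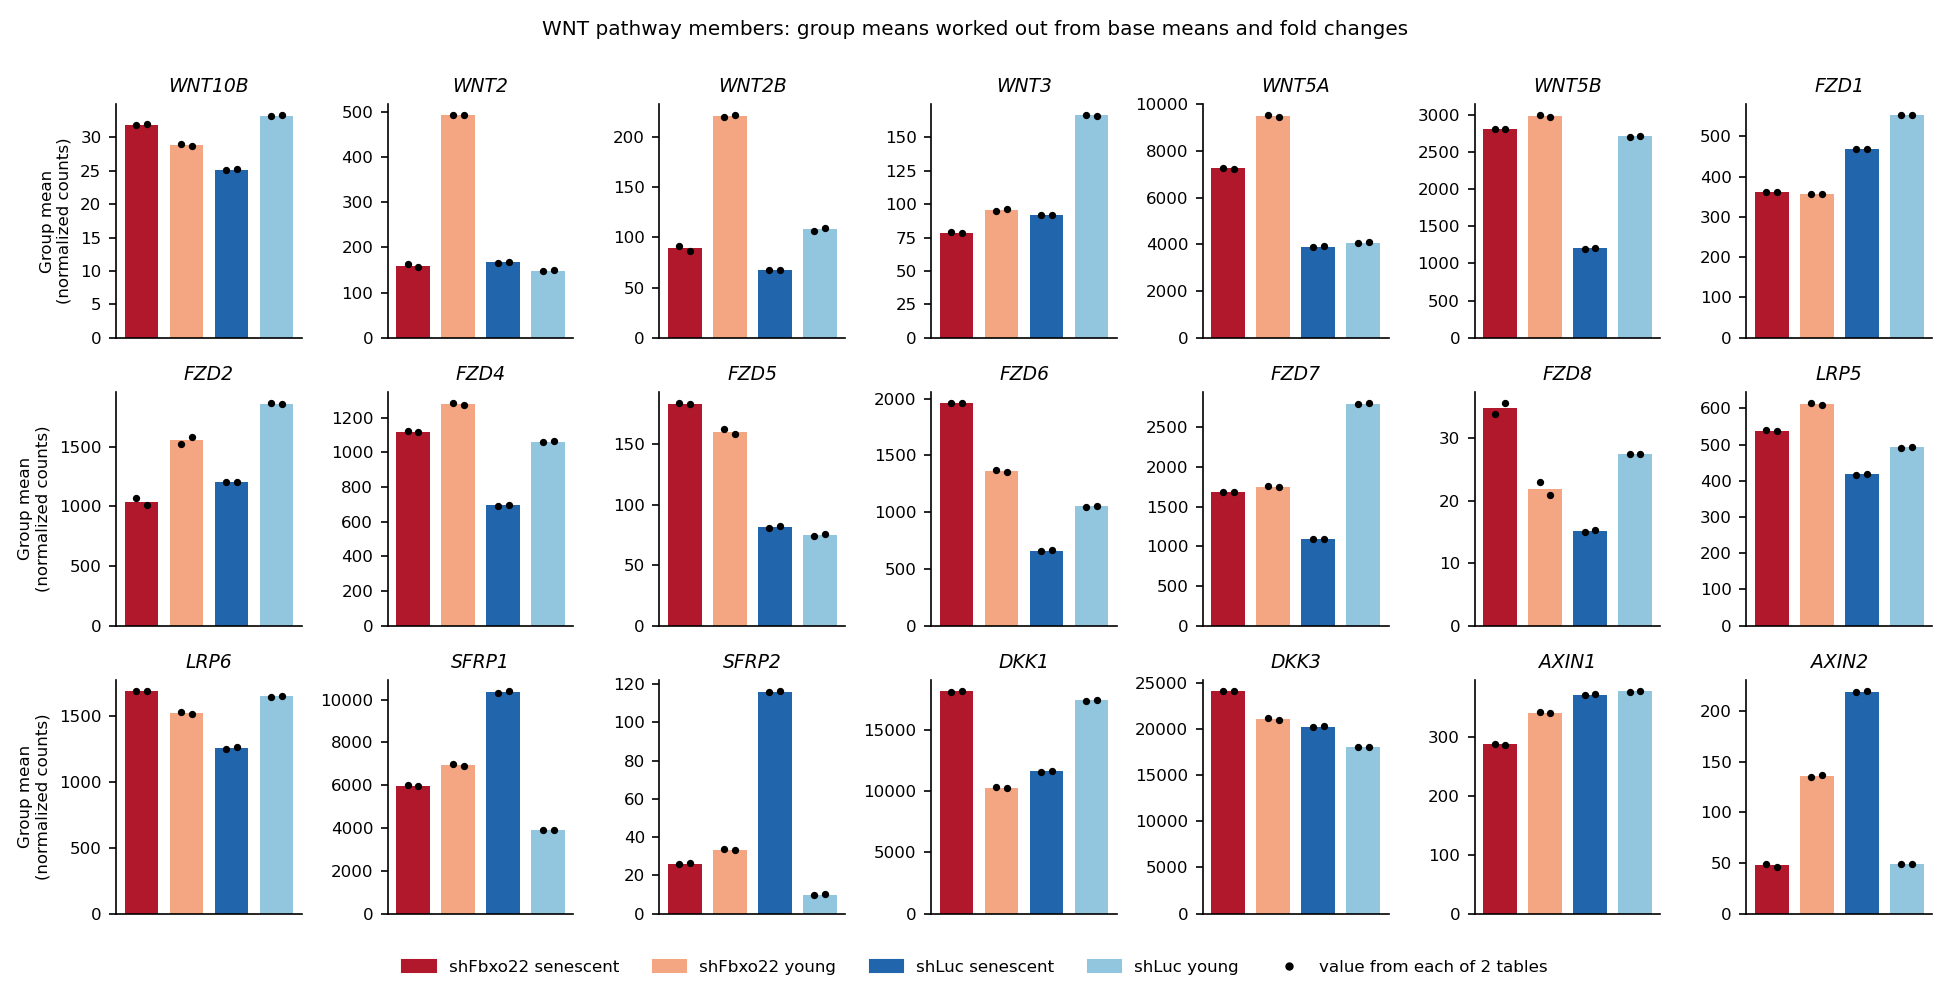
Group means in normalized counts (y axes, linear from 0, a different range for each gene) of the 21 members that reached a base mean of 20 in each table, for the libraries labelled shFbxo22 senescent, shFbxo22 young, shLuc senescent and shLuc young from left to right. Bars are the mean of the 2 values that the authors' tables give for each group (dots); the tables hold no values per library, so no error bar is drawn. AXIN2 and SFRP2 are highest in shLuc senescent libraries, WNT2 and WNT2B in shFbxo22 young libraries and FZD7 in shLuc young libraries.

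Per kilobase of exon, which allows levels of different genes to be set side by side, WNT5A and WNT5B led the ligands in every group. Their reconstructed levels from the authors' deposited tables were 1144 and 1091 normalized counts per kilobase in the libraries labelled shFbxo22 senescent and 1494 and 1157 in shFbxo22 young libraries. In shLuc senescent libraries they were 615 and 466, and in shLuc young libraries 640 and 1054, on the same scale. WNT2 came next among the ligands with a group mean in all 4 groups, with 51.1 to 169 normalized counts per kilobase. In shLuc young libraries WNT3, at 49.6, was so close to WNT2, at 51.1, that their order there is not settled. WNT5B stood above WNT5A in shLuc young libraries and below it in the other 3 groups. Lengths were those of GENCODE 29, which may differ from the annotation the authors counted on.

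Of the receptors, FZD7, FZD6, FZD4 and FZD2 fell in shLuc senescence, where 21.3% of all tested genes were called lower. In shFbxo22 senescence no frizzled gene passed as lower (9.57% of all tested genes did), though FZD2 had a similar value there. FZD7, a common receptor of beta-catenin signalling, stood at 1684 normalized counts in the libraries labelled shFbxo22 senescent, 1753 in shFbxo22 young, 1091 in shLuc senescent and 2802 in shLuc young libraries, from the authors' deposited tables. Its 2 shLuc groups enclosed both shFbxo22 groups. The log2 fold change was -1.36 ± 0.09 for senescence with shLuc (Wald test, adjusted p = 1.11e-48) against -0.06 ± 0.10 with shFbxo22 (adjusted p = 0.798, not passed), per the authors' deposited tables. For the hairpins it was 0.62 ± 0.10 in senescent and -0.68 ± 0.10 in young cells (adjusted p = 8.3e-10 and 2.59e-11), on opposite sides of 0, in the authors' deposited tables.

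FZD6, a frizzled receptor with a role in planar polarity of skin and hair, stood at 1957 normalized counts in the libraries labelled shFbxo22 senescent, 1358 in shFbxo22 young, 660 in shLuc senescent and 1049 in shLuc young libraries, from the authors' deposited tables. It was the only frizzled gene called for senescence under both hairpins, in opposite directions. The authors' deposited tables gave 0.52 ± 0.10 with shFbxo22 (Wald test, adjusted p = 3.13e-06) and -0.67 ± 0.11 with shLuc (adjusted p = 5.68e-09). In senescent cells the libraries labelled shFbxo22 were higher by 1.56 ± 0.10, a 2.95-fold difference, and in young cells by 0.36 ± 0.11 (adjusted p = 8.1e-57 and 0.00389), per the authors' deposited tables. An exon of BAALC-AS1 lies over FZD6 on the other strand, and no values were found for BAALC-AS1.

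FZD5, like FZD6, was higher with shFbxo22 in both states, with 184 normalized counts in the libraries labelled shFbxo22 senescent and 160 in shFbxo22 young, against 81.3 in shLuc senescent and 74.9 in shLuc young libraries from the authors' deposited tables. Its log2 fold changes for the hairpins were 1.16 ± 0.19 in senescent and 1.06 ± 0.23 in young cells (Wald test, adjusted p = 8.68e-09 and 2.11e-05), per the authors' deposited tables. Neither senescence value, 0.18 ± 0.18 with shFbxo22 and 0.12 ± 0.24 with shLuc, passed in the authors' deposited tables. FZD1 was lower with shFbxo22 in both states, with 362 and 357 normalized counts in senescent and young shFbxo22 libraries and 469 and 552 in senescent and young shLuc libraries. Its log2 fold changes for the hairpins were -0.38 ± 0.13 in senescent and -0.63 ± 0.13 in young cells (adjusted p = 0.0109 and 1.84e-05), per the authors' deposited tables.

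FZD4, which also serves as the receptor for norrin in retinal vessels, stood at 1119 normalized counts in the libraries labelled shFbxo22 senescent, 1278 in shFbxo22 young, 695 in shLuc senescent and 1060 in shLuc young libraries, from the authors' deposited tables. It fell in shLuc senescence with -0.61 ± 0.10 and was higher in the libraries labelled shFbxo22 senescent than in shLuc senescent ones with 0.68 ± 0.11 (Wald test, adjusted p = 1.45e-08 and 3.9e-09), per the authors' deposited tables. An exon of the protease gene PRSS23 lies over FZD4 on the other strand. PRSS23, at base means of 3407 to 9675, was at -1.89 and 2.82 in the same 2 of the authors' deposited tables, so reads of PRSS23 in the FZD4 count cannot be told apart from FZD4 reads if strand was not used. FZD2 stood at 1040 and 1552 normalized counts in senescent and young shFbxo22 libraries, and at 1202 and 1859 in senescent and young shLuc libraries, from the authors' deposited tables. It was called in 1 table, with -0.64 ± 0.10 for senescence with shLuc (adjusted p = 4.66e-10), per the authors' deposited tables. With shFbxo22 the value was -0.51 ± 0.28 and did not pass (adjusted p = 0.235), per the authors' deposited table, and the difference of the responses was 0.13 ± 0.29 (normal z, adjusted p = 0.779). Both tables that include the shFbxo22 young libraries gave FZD2 a large standard error, 0.28 and 0.31, which were 2.53 and 2.93 times the median of genes with a base mean within 1.2-fold. In the authors' other 2 deposited tables it was 0.98 and 1.10 times that median. FZD8 and FZD9 had few reads, with FZD8 at 34.8 and 21.9 normalized counts in senescent and young shFbxo22 libraries and 15.1 and 27.5 in senescent and young shLuc libraries, from the authors' deposited tables. FZD8 was higher in the libraries labelled shFbxo22 senescent than in shLuc senescent ones with 1.22 ± 0.39, and FZD9 lower with -2.03 ± 0.58 (Wald test, adjusted p = 0.0055 and 0.00153), per the authors' deposited table. Base means of the authors' deposited tables allow FZD9 at most 6.96 normalized counts in either shFbxo22 group. FZD3 passed in none of the authors' 4 deposited tables.

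LRP6 and LRP5, the co-receptors for beta-catenin signalling, moved little. LRP6 stood at 1687 normalized counts in the libraries labelled shFbxo22 senescent, 1523 in shFbxo22 young, 1257 in shLuc senescent and 1649 in shLuc young libraries from the authors' deposited tables. The shLuc senescent group was again the lowest, with -0.39 ± 0.10 for senescence with shLuc (Wald test, adjusted p = 0.00014) and 0.42 ± 0.10 for the hairpins in senescent cells (adjusted p = 7.86e-05), per the authors' deposited tables. LRP5, at 538 and 612 normalized counts in senescent and young shFbxo22 libraries and 418 and 493 in senescent and young shLuc libraries, passed in 1 comparison, higher by 0.35 ± 0.13 in the libraries labelled shFbxo22 senescent than in shLuc senescent libraries (Wald test, adjusted p = 0.0161), per the authors' deposited table. LRP5L, a partial copy of LRP5 that could share reads with it, had base means of 57.5 to 69.1 and passed in none of the 4 tables. Among the receptors, per kilobase of exon, FZD2 and FZD7 led in shLuc libraries, with 569 and 283 normalized counts per kilobase in senescent and 880 and 726 in young ones. In the libraries labelled shFbxo22 senescent FZD6, at 499, and FZD2, at 492, lay close together.

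The SFRP antagonists were the set whose 4 tested genes all rose in shLuc senescence, where 21.2% of all tested genes were called higher. In shFbxo22 senescence none of the 4 passed, and only 17.7% of all tested genes were called in either direction. FRZB had a base mean of 8.78 in the shFbxo22 comparison, and SFRP4 had 8.75 in the shLuc comparison. SFRP1, the most abundant of the SFRP genes with a group mean, stood at 5980 normalized counts in the libraries labelled shFbxo22 senescent, 6941 in shFbxo22 young, 10356 in shLuc senescent and 3904 in shLuc young libraries, from the authors' deposited tables. The shLuc groups were the highest and the lowest, and both shFbxo22 groups lay between them. For senescence the log2 fold change was -0.22 ± 0.09 with shFbxo22 (Wald test, adjusted p = 0.065, not passed) and 1.40 ± 0.08 with shLuc (adjusted p = 2.74e-68), per the authors' deposited tables. For the hairpins it was -0.80 ± 0.08 in senescent and 0.82 ± 0.09 in young cells (adjusted p = 5.71e-24 and 3.41e-19), per the authors' deposited tables.

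SFRP2 showed the same order of groups at a far lower level, with 26.1 normalized counts in the libraries labelled shFbxo22 senescent, 33.3 in shFbxo22 young, 116 in shLuc senescent and 9.73 in shLuc young libraries from the authors' deposited tables. Its senescence values were -0.37 ± 0.30 with shFbxo22, which did not pass (Wald test, adjusted p = 0.501), and 3.61 ± 0.35 with shLuc (adjusted p = 3.42e-24), a 12.2-fold difference, in the authors' deposited tables. For the hairpins they were -2.15 ± 0.29 in senescent and 1.72 ± 0.41 in young cells (adjusted p = 1.14e-12 and 0.000153), per the authors' deposited tables.

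FRZB, the antagonist also called SFRP3, was low with shFbxo22 in both states. Base means of the authors' deposited tables alone allow at most 17.6 normalized counts in either shFbxo22 group, with 60.2 to 77.7 in shLuc senescent and 21.6 to 39.1 in shLuc young libraries. The moderated log2 fold change for the hairpins was -2.85 ± 0.37 in senescent and -1.35 ± 0.40 in young cells (Wald test, adjusted p = 1.58e-13 and 0.00364), per the authors' deposited tables. For senescence it was 1.16 ± 0.29 with shLuc (adjusted p = 0.00027) and -0.13 ± 0.33 with shFbxo22, not passed, in the authors' deposited tables. SFRP4 had few reads, and the authors' base means put it at 31.6 to 48.9 normalized counts in the libraries labelled shFbxo22 senescent, 9.69 to 27.0 in shFbxo22 young, at most 17.3 in shLuc senescent and at most 17.5 in shLuc young libraries. It was higher with shFbxo22 in young cells, 2.85 ± 0.49, and in senescent than in young shLuc cells, 2.74 ± 0.62 (Wald test, adjusted p = 6.79e-08 and 4.97e-05), per the authors' deposited tables. In senescent cells the hairpin difference of SFRP4, 0.87 ± 0.38, did not pass (adjusted p = 0.0577), per the authors' deposited table. SFRP5 was at 0 throughout.

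DKK1, which blocks LRP5 and LRP6, moved opposite to the SFRP genes in shLuc senescence and was among the most abundant members. In group means worked out from the authors' deposited tables it had 18185 normalized counts in the libraries labelled shFbxo22 senescent, 10316 in shFbxo22 young, 11656 in shLuc senescent and 17447 in shLuc young libraries. The libraries labelled shFbxo22 senescent and the shLuc young libraries were high, and the other groups were lower. Senescence gave 0.81 ± 0.09 with shFbxo22 and -0.59 ± 0.11 with shLuc (Wald test, adjusted p = 1.35e-16 and 1.48e-07), per the authors' deposited tables. The hairpins gave 0.64 ± 0.10 in senescent and -0.77 ± 0.10 in young cells (adjusted p = 2.01e-10 and 2.12e-12), again in opposite directions, in the authors' deposited tables. DKK3, a secreted relative that is not a classical LRP antagonist, lay between 18059 and 24119 normalized counts in all 4 groups in the authors' deposited tables. It was slightly higher with shFbxo22 in both states, by 0.25 ± 0.09 in senescent and 0.22 ± 0.08 in young cells (adjusted p = 0.0142 and 0.0334), per the authors' deposited tables. DKK2 had base means of at most 3.15, and DKK4 was at 0.

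The promoters of DKK1, SFRP2 and FRZB are shown because these antagonists moved in opposite directions in shLuc senescence and 2 of them rose together. Each is the 250 bases before the gene's start from RefSeq (GRCh38.p14), on the gene's strand, and capitals mark CTTTGA, a core of the motif bound by TCF and LEF factors, or its reverse complement TCAAAG. The DKK1 sequence is at chr10:52314031-52314280 on the plus strand, SFRP2 at chr4:153789084-153789333 on the minus strand and FRZB at chr2:182866638-182866887 on the minus strand.
DKK1: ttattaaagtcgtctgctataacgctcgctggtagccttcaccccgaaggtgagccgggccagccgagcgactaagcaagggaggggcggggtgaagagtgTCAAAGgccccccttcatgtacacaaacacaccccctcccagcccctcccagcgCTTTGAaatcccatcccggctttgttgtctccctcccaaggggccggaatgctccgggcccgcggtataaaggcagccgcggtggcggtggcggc
SFRP2: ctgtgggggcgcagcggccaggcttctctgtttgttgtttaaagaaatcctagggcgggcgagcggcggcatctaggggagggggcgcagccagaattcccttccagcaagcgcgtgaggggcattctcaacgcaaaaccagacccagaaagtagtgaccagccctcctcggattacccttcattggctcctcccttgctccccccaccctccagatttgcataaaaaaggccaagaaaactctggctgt
FRZB: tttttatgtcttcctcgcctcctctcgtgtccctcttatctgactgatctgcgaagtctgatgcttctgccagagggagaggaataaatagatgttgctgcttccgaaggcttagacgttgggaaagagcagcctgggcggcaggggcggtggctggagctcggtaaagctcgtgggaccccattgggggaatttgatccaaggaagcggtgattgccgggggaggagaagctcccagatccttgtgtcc

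The DKK1 window held the 6 letters on both strands, with first bases 149 and 95 bases before the start, and the SFRP2 and FRZB windows held none. Of the 42 members, 28 had an entry in the set of RefSeq promoters used here, with 31 windows, and among these 28 only DKK1 held the letters. AXIN2, SFRP1, WNT11, FZD6, FZD7 and LRP6 were among the members without a window and were not searched. Of all 35116 windows of this length, 11.2% held the letters on either strand. The GC content was 62.8% for DKK1, 57.6% for SFRP2 and 55.6% for FRZB. The members' median was 72.4% and that of all windows 58%. A match is a string of letters, and its absence says only that these letters are not in this window.

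AXIN2, the scaffold that beta-catenin signalling induces, moved in opposite directions in senescence under the hairpins. It stood at 47.5 normalized counts in the libraries labelled shFbxo22 senescent, 136 in shFbxo22 young, 219 in shLuc senescent and 48.9 in shLuc young libraries, from the authors' deposited tables. The libraries labelled shFbxo22 senescent and the shLuc young libraries were low and nearly equal, and the shFbxo22 young and shLuc senescent libraries were high. Senescence gave -1.46 ± 0.22 with shFbxo22 and 2.17 ± 0.21 with shLuc on the log2 scale (Wald test, adjusted p = 4.95e-10 and 1.12e-23), per the authors' deposited tables. The hairpins gave -2.26 ± 0.21 in senescent cells, a 4.79-fold lower level, and 1.47 ± 0.23 in young cells (adjusted p = 1.34e-25 and 2.92e-09), per the authors' deposited tables. The annotation places an exon of AC004805.1 over AXIN2 on the same strand. No values were found for AC004805.1, so its part in the AXIN2 count is unknown. AXIN1, the constitutive scaffold, ranged from 287 to 377 normalized counts and passed in 1 of the authors' deposited tables, with -0.38 ± 0.15 for the hairpins in senescent cells (adjusted p = 0.0361). No deposited table sets shLuc senescent against shFbxo22 young libraries, or the libraries labelled shFbxo22 senescent against shLuc young ones, so those orders were not tested.

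A difference between the 2 senescence responses was tested by subtracting the shLuc fold change from that of shFbxo22 on the log2 scale, with a normal z from the authors' 2 standard errors and p-values adjusted by Benjamini-Hochberg over 18598 genes. Of 26 members with a value, 15 differed, against 37% of all genes tested, 7 on the positive side (18.8% of all genes) and 8 on the negative (18.1%). Among genes that reached a base mean of 20 it was 12 of 21 members, 57.1%, against 43% of all genes. All 4 SFRP genes lay on the negative side: SFRP1 at -1.62 ± 0.12 (adjusted p = 6.94e-41), SFRP2 at -3.98 ± 0.46 (adjusted p = 1.19e-16), SFRP4 at -2.52 ± 0.69 (adjusted p = 0.00119) and FRZB at -1.29 ± 0.44 (adjusted p = 0.0118). FRZB no longer passed once the moderation of fold changes was removed, at -1.50 (adjusted p = 0.12). AXIN2 was at -3.62 ± 0.30, WNT11 at -3.52 ± 0.55, WNT2 at -1.77 ± 0.24 and WNT5A at -0.33 ± 0.13 (adjusted p = 1.76e-31, 1.92e-09, 2.11e-12 and 0.0369). On the positive side were DKK1 at 1.39 ± 0.14, WNT5B at 1.09 ± 0.14, LRP6 at 0.54 ± 0.14 and 4 frizzled genes. FZD7 was at 1.30 ± 0.14, FZD6 at 1.19 ± 0.15, FZD8 at 1.45 ± 0.54 and FZD4 at 0.42 ± 0.16 (adjusted p = 5.98e-20, 1.52e-14, 0.022 and 0.0261).

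**Figure D3:**
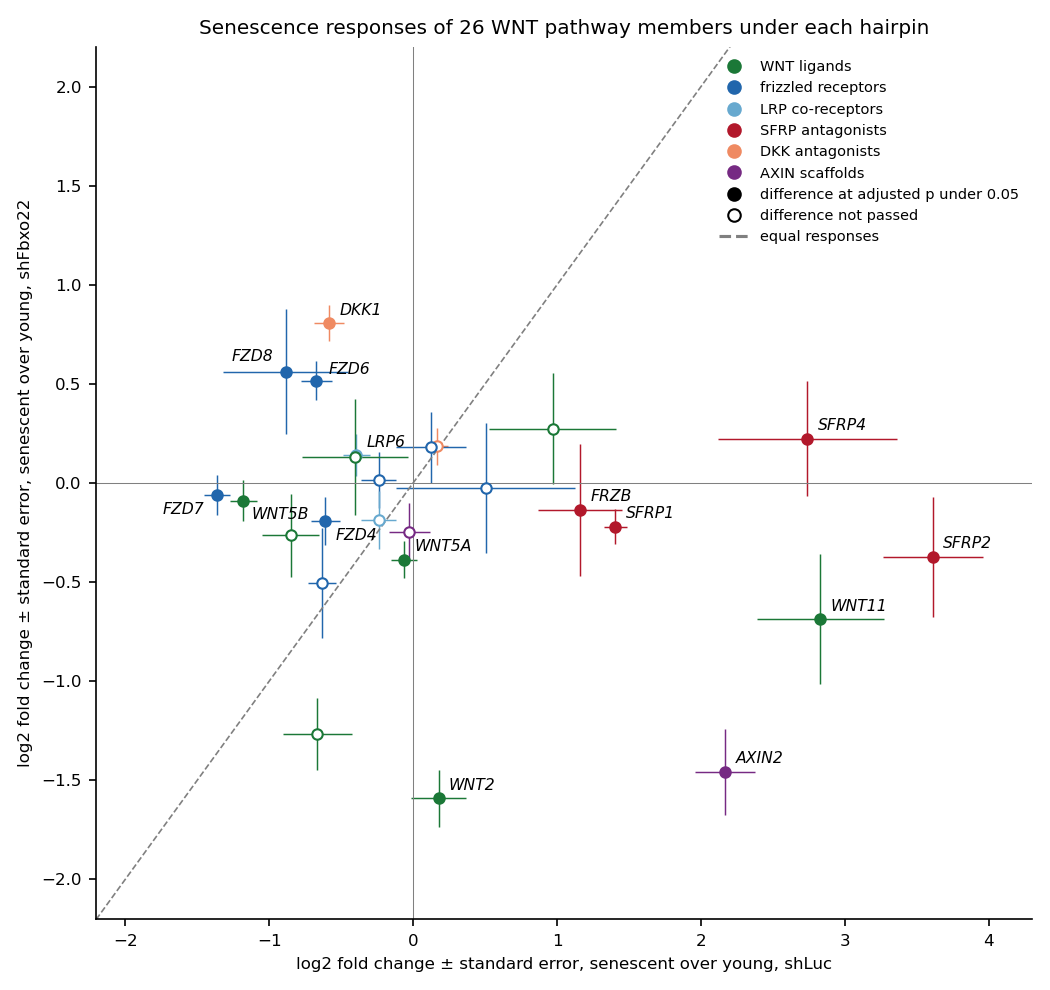
Senescence response (log2 fold change, senescent over young, with the authors' standard errors) under shFbxo22 (y axis) against shLuc (x axis) for the 26 members with an adjusted p in both tables; filled points are the 15 whose responses differed at an adjusted p under 0.05, and the dashed line marks equal responses. The SFRP genes, WNT11 and AXIN2 lie to the right below the line, with SFRP2 at 3.61 for shLuc and -0.37 for shFbxo22, and DKK1 and FZD6 lie above it.

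Outside the 42 members, other genes of the pathway were counted in 5 lists. The lists overlap, since some genes, such as APCDD1 and TCF7, are counted among the beta-catenin targets and also in another list. Of all tested genes, 8.16% were called higher and 9.57% lower in shFbxo22 senescence, and 21.2% and 21.3% in shLuc senescence. For the hairpins the shares of all genes were 20.2% higher and 19.9% lower in senescent cells and 18.7% and 17.3% in young cells. Of receptors and co-receptors beside FZD and LRP (18 listed), 2 rose and 2 fell of 13 tested in shFbxo22 senescence, and 7 rose and 2 fell of 13 in shLuc senescence. The hairpins gave 3 higher and 5 lower of 14 in senescent cells and 9 higher and 1 lower of 13 in young cells. The list's median log2 fold changes were -0.03 and 0.91 for senescence with shFbxo22 and shLuc, and -0.34 and 0.82 for the hairpins in senescent and young cells, where the medians over all tested genes lay within 0.01 of 0. ROR2, a receptor for WNT5A, was at -0.78 ± 0.12 for senescence with shFbxo22 and 2.27 ± 0.10 with shLuc in the authors' deposited tables (Wald test, adjusted p = 2.18e-09 and 2.46e-110). RSPO3, a secreted amplifier of WNT signalling, was at 3.12 ± 0.26 for senescence with shLuc (adjusted p = 9.53e-32), per the authors' deposited table. With shFbxo22 RSPO3 was at -0.49 ± 0.21 for senescence and did not pass (Wald test, adjusted p = 0.0948), per the authors' deposited table.

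Of genes for WNT secretion and other extracellular modifiers, 3 rose and 2 fell of 8 tested in shFbxo22 senescence (8.16% and 9.57% of all genes), and 5 rose and 1 fell of 9 in shLuc senescence (21.2% and 21.3% of all genes). Between the hairpins 4 were higher and 4 lower of 10 in senescent cells (20.2% and 19.9% of all genes). In young cells 6 were higher and 1 lower of 8 (18.7% and 17.3% of all genes). The list's medians, in the same order of comparisons, were -0.02, 0.87, 0.12 and 1.07. APCDD1, an inhibitor of WNT signalling in skin, was at -1.65 ± 0.11 for senescence with shFbxo22 and 2.31 ± 0.10 with shLuc in the authors' deposited tables (adjusted p = 3.25e-46 and 2.97e-110). The responses of ROR2 and APCDD1 to senescence differed between the hairpins by -3.04 ± 0.16 and -3.95 ± 0.15 (normal z, adjusted p = 6.60e-82 and 1.00e-145). SULF1, a sulfatase that edits heparan sulfate and so WNT binding at the cell surface, was higher with shFbxo22 in both states, by 2.90 ± 0.08 in senescent and 2.64 ± 0.09 in young cells, in the authors' deposited tables. SULF2 of the same list rose in senescence under both hairpins. It was at 1.80 ± 0.10 with shFbxo22 and 3.12 ± 0.14 with shLuc (Wald test, adjusted p = 3.74e-75 and 3.04e-106), per the authors' deposited tables.

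Signal transduction, polarity and target genes were called in both directions in every comparison. Of 32 cytoplasmic and nuclear genes, 4 rose and 5 fell of 31 tested in shFbxo22 senescence (8.16% and 9.57% of all genes) and 11 rose and 8 fell of 32 in shLuc senescence (21.2% and 21.3% of all genes). The hairpins gave 10 higher and 12 lower in senescent cells (20.2% and 19.9% of all genes). In young cells they gave 8 higher and 6 lower (18.7% and 17.3% of all genes). The medians, in the same order of comparisons, were 0.04, 0.10, -0.05 and 0.02. TLE3, a co-repressor that binds TCF factors, was lower with shFbxo22 in both states, at -1.81 ± 0.17 in senescent and -1.17 ± 0.13 in young cells (Wald test, adjusted p = 3.40e-26 and 7.18e-18), per the authors' deposited tables. Of 20 planar polarity and non-canonical genes, 4 rose and 7 fell of 19 tested in shFbxo22 senescence (8.16% and 9.57% of all genes) and 6 rose and 3 fell of 19 in shLuc senescence (21.2% and 21.3% of all genes). The hairpins gave 8 higher and 4 lower of 20 in senescent cells (20.2% and 19.9% of all genes). In young cells they gave 6 higher and 3 lower of 19 (18.7% and 17.3% of all genes). The medians, in the same order of comparisons, were -0.11, 0.02, 0.37 and 0.00. PRICKLE1, a core planar polarity gene, was higher with shFbxo22 in both states, at 3.02 ± 0.19 in senescent and 2.84 ± 0.17 in young cells (Wald test, adjusted p = 7.01e-58 and 1.11e-63), per the authors' deposited tables. Of 22 beta-catenin targets other than AXIN2 and DKK1, 4 rose and 4 fell of 14 tested in shFbxo22 senescence (8.16% and 9.57% of all genes), and 6 rose and 5 fell of 17 in shLuc senescence (21.2% and 21.3% of all genes). For the hairpins 5 were higher and 5 lower of 17 in senescent cells (20.2% and 19.9% of all genes). In young cells 5 were higher and 4 lower of 14 (18.7% and 17.3% of all genes). Counts of so few genes were not tested against these shares. The target list's median log2 fold changes were -0.16 and 0.26 for senescence with shFbxo22 and shLuc, and -0.37 and 0.03 for the hairpins in senescent and young cells. FOSL1, an AP-1 subunit in that list, was at -1.90 ± 0.10 for senescence with shLuc in the authors' deposited table, where APCDD1 of the same list stood at 2.31.

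**Figure D4:**
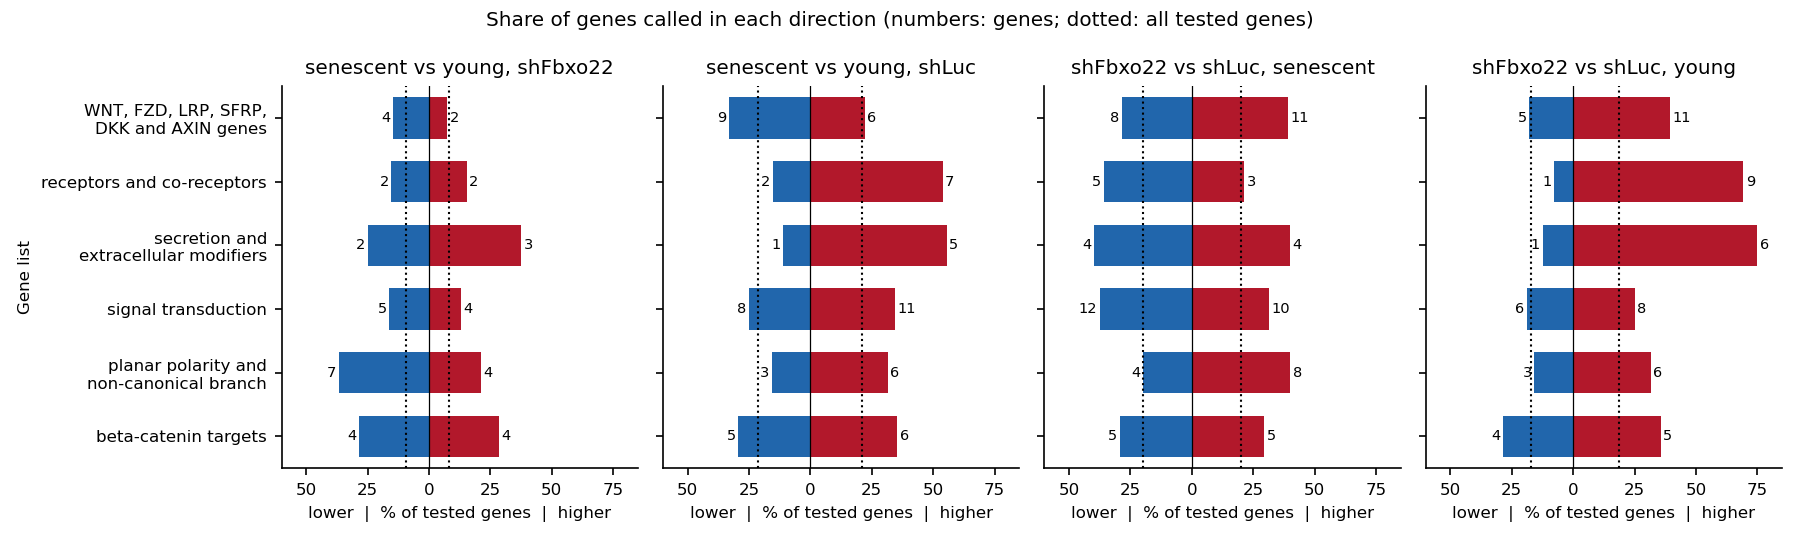
Share of tested genes called higher (red, right) and lower (blue, left) at an adjusted p under 0.05 for the WNT, FZD, LRP, SFRP, DKK and AXIN members and 5 partly overlapping lists of other pathway genes (y axis) in 4 comparisons (x axis, percent of tested genes, 0 in the middle). Numbers beside the bars count genes, and dotted lines mark the share of all tested genes called in that direction; for the members these are 11 higher and 5 lower for the hairpins in young cells.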

How the data were processed

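The authors deposited 4 tables of comparisons, each of 2 groups of 3 libraries, with 55765 rows, of which 28 with dates for symbols were left out. Per the file headers, a row holds a base mean (a signal, the mean count over size factors), a log2 fold change with standard error, a Wald score, and a p-value with its adjusted value, all computed by the authors. The submitters' processing notes name DESeq2 1.14.1 under R 3.2.2 and the aligners STAR 2.3.0 and Bowtie2 2.0.0, with builds hg19 and GRCh37. With no counts deposited, the authors' own tests were used. Depth per library is unknown.

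The authors' fold changes were moderated towards 0, since their largest standard errors were 0.333 (senescence, shFbxo22), 0.697 (senescence, shLuc), 0.645 (hairpins, senescent) and 0.528 (hairpins, young); fold changes of genes with few reads are understated. Signs were settled from the group means, which each come from 2 tables and must coincide. The best of the 16 choices gave a mean absolute log2 difference of 0.00918 over 9109 genes, the next 0.131. It turned the shFbxo22 senescence table and the senescent hairpin table, whose deposited signs are opposite to those printed. Positive values are higher in senescent cells or with shFbxo22. Group means are printed for members with base means of at least 20 in all tables and a log2 gap of at most 0.2 between tables.

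Members, lists and tests were chosen with earlier results of these data known. Every member is accounted for, and of other lists at most 2 genes with base means of at least 100 and the largest change were eligible to be named. Exon lengths and overlaps came from GENCODE 29 (GRCh38), with Python 3.11.15, pandas 2.3.3 and scipy 1.17.1. The test of differences was run on simulated data whose errors were drawn from the same standard errors, so this checks the calculation only. It does not cover the unequal moderation of the senescence fold changes under the hairpins.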

Additional observations from a re-analysis of the deposited data

Results flagged for a closer look

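The senescence response of 15 of 26 tested members differed between the hairpins by the test of the difference (the shFbxo22 response less the shLuc response, in log2 units), as did 37% of all 18598 genes tested. The values were -3.98 for SFRP2, -3.62 for AXIN2, -3.52 for WNT11, -2.52 for SFRP4, -1.77 for WNT2, -1.62 for SFRP1, -1.29 for FRZB and -0.33 for WNT5A. On the other side they were 1.45 for FZD8, 1.39 for DKK1, 1.30 for FZD7, 1.19 for FZD6, 1.09 for WNT5B, 0.54 for LRP6 and 0.42 for FZD4. These rest on the label of the libraries labelled shFbxo22 senescent, which had the highest FBXO22 group mean. The difference for FRZB no longer passed once the moderation of fold changes was removed.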

How the results depend on the processing

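The counts of members called stayed within 1.5 times of those reported under every alternative run. A threshold of 0.01 gave 6 members for senescence with shFbxo22 (12.5% of all genes passed it), 14 for senescence with shLuc (35.2%), 15 and 14 for the hairpins in senescent and young cells (32.5% and 27.4%), and 11 for the difference of responses (28.7%). Adjusting over every gene with a p-value, with no filter on low values, ended the calls of AXIN1 for the hairpins in senescent cells (adjusted p = 0.0561) and DKK3 in young cells (adjusted p = 0.0588). Centring on the median gene, a shift of at most 0.02 on the log2 scale, changed no member's call. The difference of responses taken from the hairpin tables also gave 15 members, there of 28 tested (33.2% of all genes were called). Removing the moderation gave 14 of 26, without FRZB (35.1% of all genes were called). No called member changed direction under these alternatives. No paired analysis was possible because no values of single libraries were available here, and for the same reason no replicate could be left out. The 14 members with no adjusted p had base means of at most 3.15, and the tables give no call for them.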
